A study of Mus musculus with 94 samples.

Results

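The Lx5 and Lx6 elements were the 23521 copies of the L1 subfamilies Lx5 (6748 copies), Lx5b (3090), Lx5c (6535) and Lx6 (7148) among the 430083 L1 elements of the count table. A copy was taken as a member by its name, from the text before the copy number, so no measured value entered the choice. Elements named Lx5c_dup5368 and Lx6_dup17183 were left out by the same rule. L1 counts were measured by total RNA sequencing in 94 libraries, 48 of cortex and 46 of hippocampus, and 46 of the 48 mice had a library of each tissue. All mice were male, 3 to 4 months of age by the labels, and either trisomic Ts65Dn mice (TS) or wild-type littermates (WT). Ts65Dn females of the strain B6EiC4Sn.BLiA-Ts(1716)65Dn/DnJ were bred with B6C3F1/OlaHsd hybrid males. This trisomy covers parts of MMU16 and MMU17 and models Down syndrome only in part. The treated mice (-t) received lamivudine, an inhibitor of reverse transcriptase, at 3 mg/kg in the drinking water for 4 months, and the others were non-treated (-nt) and received water. The study does not say whether the age of 3 to 4 months is that at the start of treatment or that when tissue was taken. Cortex was measured in 9 WT-nt, 9 TS-nt, 17 WT-t and 13 TS-t mice and hippocampus in 8, 8, 17 and 13. Each label names 1 animal, but the methods of the study speak of samples pooled by condition before RNA was measured. If the libraries were pools, the spread given here would be that between pools. The table analysed holds L1 elements only, so the tissue labels were not checked against marker genes.

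L1 elements (LINE-1) are retrotransposons that copy themselves through an RNA. An intact copy encodes an RNA-binding protein and a second protein with endonuclease and reverse transcriptase activity. Lx subfamilies are old rodent L1 lineages, and nearly all of their copies are truncated and mutated, so that they are not expected to move. A copy that lies within a gene can be read as part of the RNA of that gene, and a count on it does not show that transcription started in the element.

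Positions were at hand for 3 members, which the study lists as L1s of interest and which it chose on these samples. Lx5_dup4325 lies at chr5:29339931-29342994 (GRCm38/mm10, minus strand), within an intron of Lmbr1, a protein-coding gene on the same strand. Lx5b_dup498 lies at chr1:176865854-176866770 on the minus strand, within an intron of Sdccag8, which is on the plus strand. Lx6_dup13936 lies at chr13:78276335-78277974 on the minus strand. It falls inside exon 2 (78275288 to 78279391) of A830082K12Rik, an antisense long non-coding RNA gene of the plus strand. The 3 copies are 3064, 917 and 1640 bases long. The sequence of Lx6_dup13936 is shown to let a reader see the state of such a copy. The stretch below is chr13:78276984-78277283 on the minus strand, read from the GENCODE transcript of A830082K12Rik and turned to the strand of the element, and the capitals mark the stop codon that ends the longest stretch without a stop codon in the copy.

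Lx6_dup13936: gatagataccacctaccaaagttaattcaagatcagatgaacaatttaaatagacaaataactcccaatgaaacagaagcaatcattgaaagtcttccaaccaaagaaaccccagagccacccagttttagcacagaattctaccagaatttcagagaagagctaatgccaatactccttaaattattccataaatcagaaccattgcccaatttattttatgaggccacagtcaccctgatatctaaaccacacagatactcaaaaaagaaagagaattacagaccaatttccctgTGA

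The stretch ended by this stop codon was 135 codons long, far short of an L1 protein with reverse transcriptase activity. The copy was 38.3% A and 36.8% G or C.

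Levels are given as a share of all L1 counts of a library for a subfamily and as counts per 1000000 L1 counts (CPM) for a single copy, since the total reads of the libraries were not used here. The L1 counts of a library ranged from 186545 to 1165192 in cortex and from 178454 to 403378 in hippocampus, and the Lx5 and Lx6 elements held 7618 to 70737 and 8703 to 19866 of them. A share or a CPM cannot tell a change of these elements from a change of all other L1s, and in these bulk tissues fewer cells of a type and less RNA per cell cannot be told apart. In 8 cortex libraries (WT-t mice 1, 3, 4 and 47, TS-t mice 2 and 8, TS-nt mouse 23 and WT-nt mouse 24) the library stood apart on the first principal component of L1 counts (distance to the median over 3 times the median absolute deviation), and none did in hippocampus. Results that rest on these libraries are given with and without them.

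Together the 4 subfamilies held 4.79% ± 0.494 (SD, n = 48) of L1 counts in cortex and 4.74% ± 0.237 (SD, n = 46) in hippocampus, and 5.47% of the elements of the table. The Lx5 share was 1.52% ± 0.139 in cortex and 1.54% ± 0.0695 in hippocampus. For Lx5c it was 1.40% ± 0.147 and 1.47% ± 0.0860. These 2 subfamilies were the most abundant, and Lx5 was above Lx5c in 44 of 48 cortex and 37 of 46 hippocampus libraries, which left their ranges overlapping. The Lx6 share was 1.32% ± 0.168 in cortex and 1.20% ± 0.0967 in hippocampus. Lx5c was above Lx6 in 37 of 48 cortex and in 46 of 46 hippocampus libraries. Lx5b was lowest, at 0.551% ± 0.0869 and 0.533% ± 0.0424, and it was below Lx6 in every library of both tissues. It also had the fewest copies. Counted per 1000 copies, Lx5b reached 1784 ± 281 CPM in cortex and 1725 ± 137 in hippocampus, and Lx6 reached 1845 ± 234 and 1685 ± 135. Lx5 reached 2249 ± 206 and 2275 ± 103, and Lx5c reached 2140 ± 225 and 2251 ± 132. The mean over all L1 elements was 2325 CPM per 1000 copies, above each of the 4 means. Copies differ in length, and lengths were at hand for only 3 of them, so that these values are per copy and not per base.

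**Figure D1:**
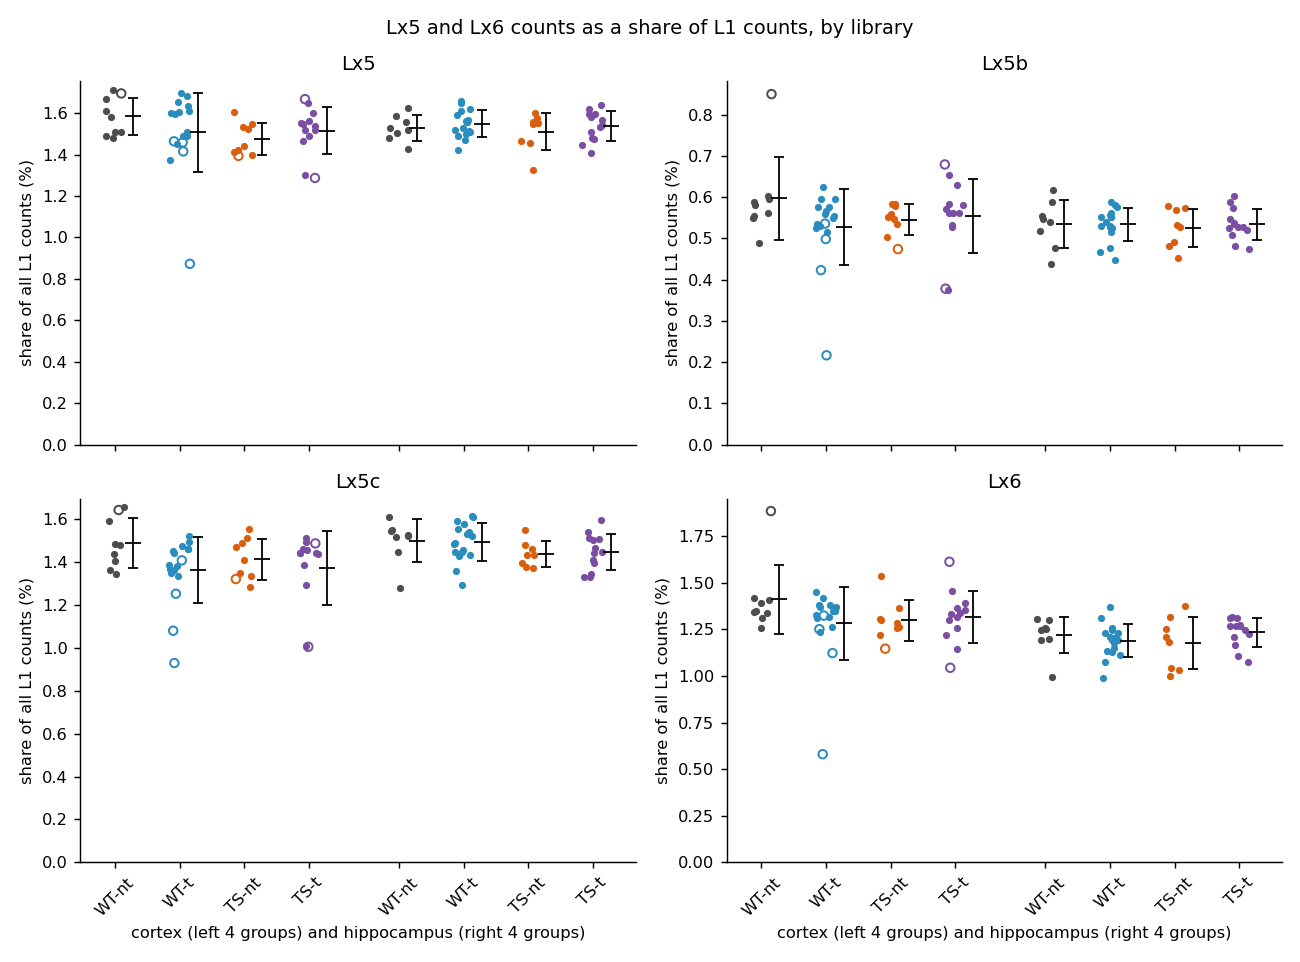
The share of all L1 counts (%) held by each subfamily, by library, with cortex groups on the left and hippocampus groups on the right of each panel. Points are libraries, open circles the 8 outlying cortex libraries, and bars the mean ± SD. WT-nt mouse 24 lies highest for Lx5b (0.850%) and Lx6 (1.88%), and WT-t mouse 1 lowest in all 4 panels for cortex.

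Most copies were seen rarely. Of the 23521 members, 22374 (95.1%) had at least 1 count in the 94 libraries and 1147 had none, but 7570 (32.2%) were seen in a single library. Only 1166 (4.96%) had a count in at least 47 libraries and 15 in all 94, of which 6 were Lx5, 1 was Lx5b, 5 were Lx5c and 3 were Lx6. In a cortex library between 139 and 7026 members had a count (median 2833), and in a hippocampus library between 1145 and 4145 (median 2082.5). The lowest number was that of WT-t mouse 1 in cortex, where 8342 counts fell on 139 members and a single L1 element of the whole table held 24.2% of all L1 counts. The number of members with a count was otherwise at least 968.

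A small set of copies carried much of the signal. In hippocampus 58 of the 6535 Lx5c copies (0.888%) were enough for 50% of the mean Lx5c level, against 80 copies for Lx5, 45 for Lx5b and 160 for Lx6. In cortex the numbers were higher, at 145, 147, 88 and 219. The most abundant member was Lx5c_dup11681. Its level was 52.4 to 1931 CPM in cortex (median 1191) and 900 to 2993 CPM in hippocampus (median 1747), and it held 7.71% and 11.6% of the Lx5c level. Next came Lx5c_dup7571, at a median of 927 CPM in cortex and 1392 CPM in hippocampus. These 2 copies ranked 30 and 47 among all 430083 L1 elements by mean CPM. Lx5_dup9402, Lx5_dup8474 and Lx5_dup3006 led Lx5, with means of 670, 525 and 479 CPM in cortex. Lx5b was led by Lx5b_dup91 (385 CPM), Lx5b_dup5700 (249 CPM) and Lx5b_dup3387 (246 CPM). The Lx6 counts were spread over more copies, and the leading Lx6 copies, Lx6_dup2924, Lx6_dup7081 and Lx6_dup4745, had means of 380, 202 and 185 CPM in cortex. Lx6_dup2924 held 2.88% of the Lx6 level there.

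The comparison between tissues asked which of these copies differ between hippocampus and cortex. Lx6 was lower in hippocampus. Its share was 0.580% to 1.88% in cortex (median 1.33%) and 0.991% to 1.37% in hippocampus (median 1.22%), and 39 of the 46 mice with both tissues had the higher share in cortex. The ranges overlapped. With the 4 groups weighted equally, the sum of Lx6 counts fell by 0.17 on the log2 scale in hippocampus (SE 0.034, adjusted p = 7.66e-06, edgeR quasi-likelihood test over 133 subfamilies). Without the 8 outlying libraries the difference was -0.12 (adjusted p = 3.26e-08), and 33 of 38 mice were higher in cortex. With the mouse as a block, which pairs the tissues of each animal, it was -0.17 (adjusted p = 6.79e-05). A tissue difference was common among subfamilies, since 70.7% of the 133 subfamilies tested were called.

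Within the groups, Lx6 was lower in hippocampus in all 4. The means were 1.22% in hippocampus and 1.41% in cortex in WT-nt mice, 1.19% and 1.28% in WT-t, 1.17% and 1.30% in TS-nt, and 1.23% and 1.32% in TS-t. The difference was called in WT-nt (-0.29, adjusted p = 0.00324), in WT-t (-0.15, adjusted p = 0.0181) and in TS-t mice (-0.14, adjusted p = 0.0725). In TS-nt mice it was -0.12 (adjusted p = 0.382 in edgeR), and without the outlying libraries it was -0.13 and passed the threshold (adjusted p = 0.0165). Without those libraries the edgeR difference was -0.12 in WT-nt (adjusted p = 0.0387), -0.16 in WT-t (adjusted p = 2.24e-05) and -0.086 in TS-t (adjusted p = 0.0438). The larger difference of WT-nt mice was then no longer seen. In these 4 groups 47.4%, 43.6%, 41.4% and 12% of all subfamilies were called, in the order WT-nt, WT-t, TS-t and TS-nt.

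Of the other sums, Lx5b was also lower in hippocampus, by a smaller amount (-0.095, SE 0.038, adjusted p = 0.0261), but 26 mice were higher in cortex and 20 in hippocampus. With the total of L1 counts as the only scaling the Lx5b difference was -0.062 and no longer passed the threshold (adjusted p = 0.230). With the mouse as a block it was -0.076 (adjusted p = 0.0821), and in the single groups it passed the threshold in WT-nt mice (-0.24, adjusted p = 0.0233), where it was -0.050 (adjusted p = 0.515) without the outlying libraries. Lx5 and Lx5c were not called, at -0.021 (adjusted p = 0.459) and 0.029 (adjusted p = 0.319). Without the outlying libraries Lx5c was higher in hippocampus (0.065, adjusted p = 0.000702), and its share was higher in hippocampus in 34 of 46 mice. Without its most abundant member, which was higher in hippocampus, the Lx5c difference turned to -0.034 (adjusted p = 0.317).

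Only 472 of the 23521 members passed the filter on low counts in this comparison (154 of Lx5, 52 of Lx5b, 119 of Lx5c and 147 of Lx6), and a copy needed enough counts in at least 8 libraries of either tissue. Of the 472, 241 had them in each tissue, 70 in hippocampus alone, 52 in cortex alone and 109 only when the libraries of both were counted. In all, 106 were called at an adjusted p below 0.1, which is 22.5%, against 22.7% of all 7551 L1 elements tested. By direction, 49 were higher in hippocampus and 57 in cortex, where the shares over all elements were 10.4% and 12.2%. The members were thus called about as often as any L1 element. The 21 called copies that had entered through hippocampus alone were all higher there, and the 22 that had entered through cortex alone were all higher in cortex, as the filter favours. Among the 241 copies that entered through each tissue, 55 were called, 28 higher in hippocampus and 27 in cortex. Of the 109 that entered only with both tissues counted, 8 were called, all higher in cortex. By subfamily, 33 of 154 Lx5, 15 of 52 Lx5b, 33 of 119 Lx5c and 25 of 147 Lx6 copies were called. Among the called Lx6 copies 19 were higher in cortex and 6 in hippocampus, and for Lx5b the numbers were 5 and 10. For Lx5 they were 16 and 17, and for Lx5c 17 and 16. These splits by subfamily include the copies that had entered through hippocampus alone or cortex alone, as the filter favours. They were not made for the 241 copies that entered through each tissue. Whether a lean of a subfamily to either tissue holds apart from the filter was therefore not tested. The median log2 difference over the members tested was -0.072, and over all elements tested -0.087. With DESeq2's size factors in edgeR the median over all elements was -0.22, and 34 members were called higher in hippocampus and 89 in cortex, beside 607 and 1427 of all elements. In DESeq2 the median was -0.23 and the numbers were 48 and 105, beside 735 and 1715 of all elements. The split between directions thus depends on the scaling, for the members and for all elements. Without the 8 outlying libraries 133 of 453 members tested were called (29.4%), beside 29.4% of all elements, and 98 of them were among the 106. Of all elements 838 were then higher in hippocampus and 1273 in cortex, with a median of -0.15.

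**Figure D2:**
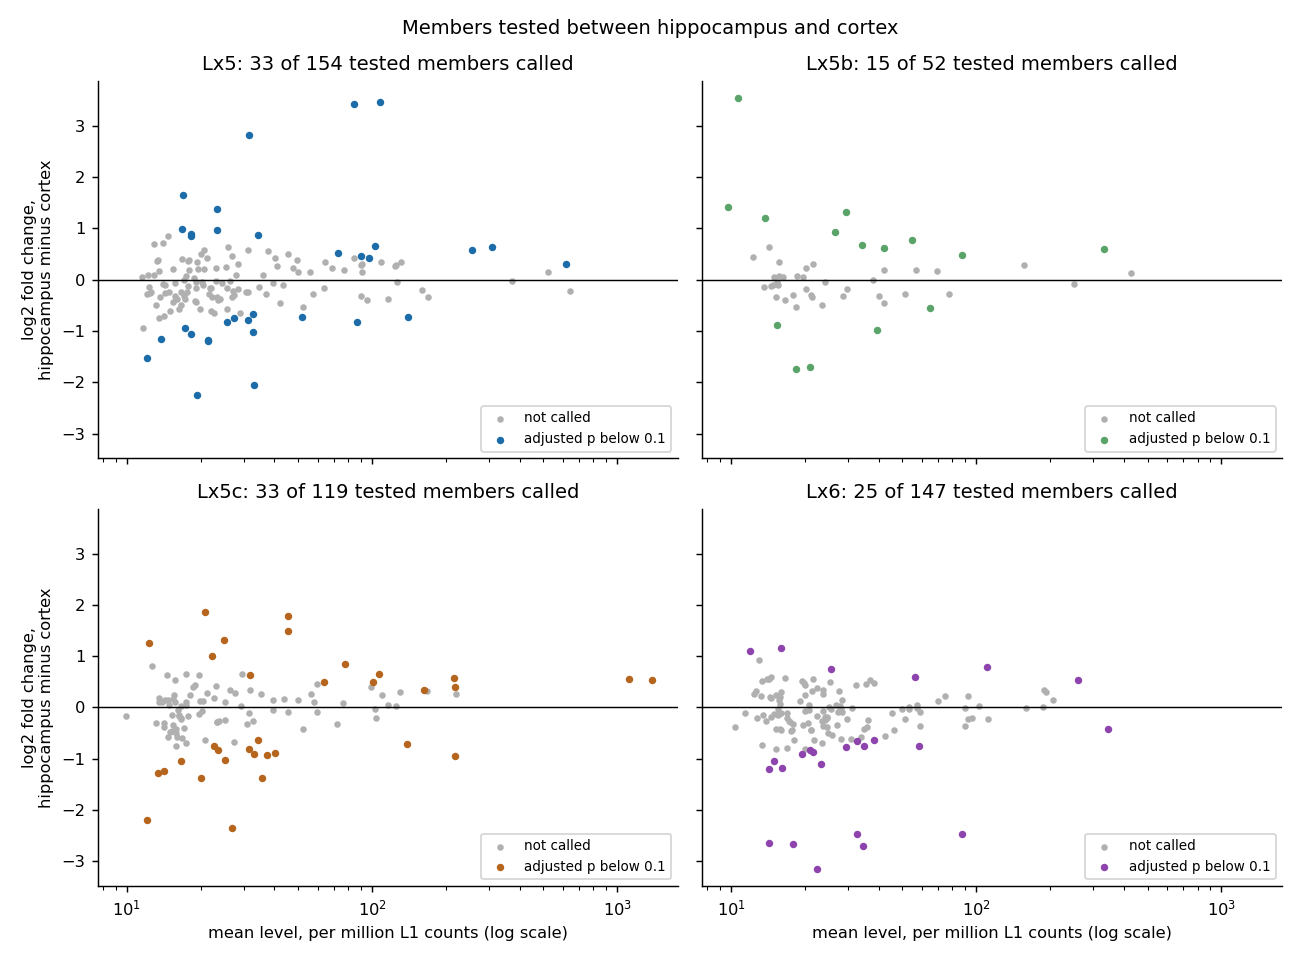
The log2 difference between hippocampus and cortex (vertical axis) against the mean CPM over all libraries (horizontal log axis) for the 472 members tested, by subfamily. Coloured points are the 106 called members, and grey points the others. The 4 differences over 3 in size belong to Lx5_dup6692, Lx5_dup6693, Lx5b_dup2403 and Lx6_dup13173, and the copies above 200 CPM differ by less than 1.

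Of the 5 members named for a higher level in hippocampus, Lx5_dup6692, Lx5_dup6693, Lx5_dup5024 and Lx5b_dup2403 had entered the test through hippocampus alone, the tissue where they were high. Their differences are therefore given as a description, without p-values. Lx5_dup6692 was at 0 to 50.8 CPM in cortex (median 16.5) and at 28.6 to 471 CPM in hippocampus (median 188). It was higher in hippocampus in 46 of 46 mice, and the ranges of the tissues overlapped only between 28.6 and 50.8 CPM. The log2 difference was 3.47 (SE 0.253). Lx5_dup6693, with the next number in the name, followed it closely, at 0 to 55.7 CPM (median 11.2) and 0 to 341 CPM (median 148). The difference was 3.43, and 44 of 46 mice were higher in hippocampus. Over the 94 libraries the log2 levels of the pair had a Pearson's r of 0.725, which includes the tissue difference.

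Lx5_dup5024 was at a median of 3.13 CPM in cortex and 46.9 CPM in hippocampus and was higher in hippocampus in 44 of 46 mice (a difference of 2.83). Lx5b_dup2403 had a count in 10 of the 48 cortex libraries and had a median of 17.3 CPM in hippocampus (a difference of 3.54). Its counts were few, 23 in all cortex libraries and 243 in all hippocampus libraries. Lx5c_dup14516, which had entered through each tissue, had medians of 12.8 and 75.5 CPM (1.78, adjusted p = 2.92e-08 in edgeR). These copies were low in cortex in nearly every mouse, and some cortex libraries overlapped the hippocampus range.

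Of the 5 members named for a higher level in cortex, Lx6_dup13173, Lx6_dup17278, Lx5c_dup814 and Lx5_dup3845 had entered the test through cortex alone, and their differences are likewise given without p-values. Lx6_dup13173 was at 0 to 107 CPM in cortex (median 33.9) and had a count in 20 of the 46 hippocampus libraries (highest 48.3 CPM), and the difference was -3.15 (SE 0.387). Lx6_dup17277 and Lx6_dup17278 again bear consecutive numbers. Lx6_dup17277, which had entered through each tissue, was at 0 to 331 CPM in cortex (median 129) and 0 to 365 CPM in hippocampus (median 19.7), with a difference of -2.46 (adjusted p = 3.33e-09 in edgeR). Its highest hippocampus value was that of TS-t mouse 21, which also held the highest value of Lx6_dup17278 (165 CPM). Lx6_dup17278 differed by -2.69, Lx5c_dup814 by -2.35 and Lx5_dup3845 by -2.06. Between 39 and 43 of the 46 mice were higher in cortex for each of these 5 copies, and the ranges of the tissues overlapped for all of them.

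**Figure D3:**
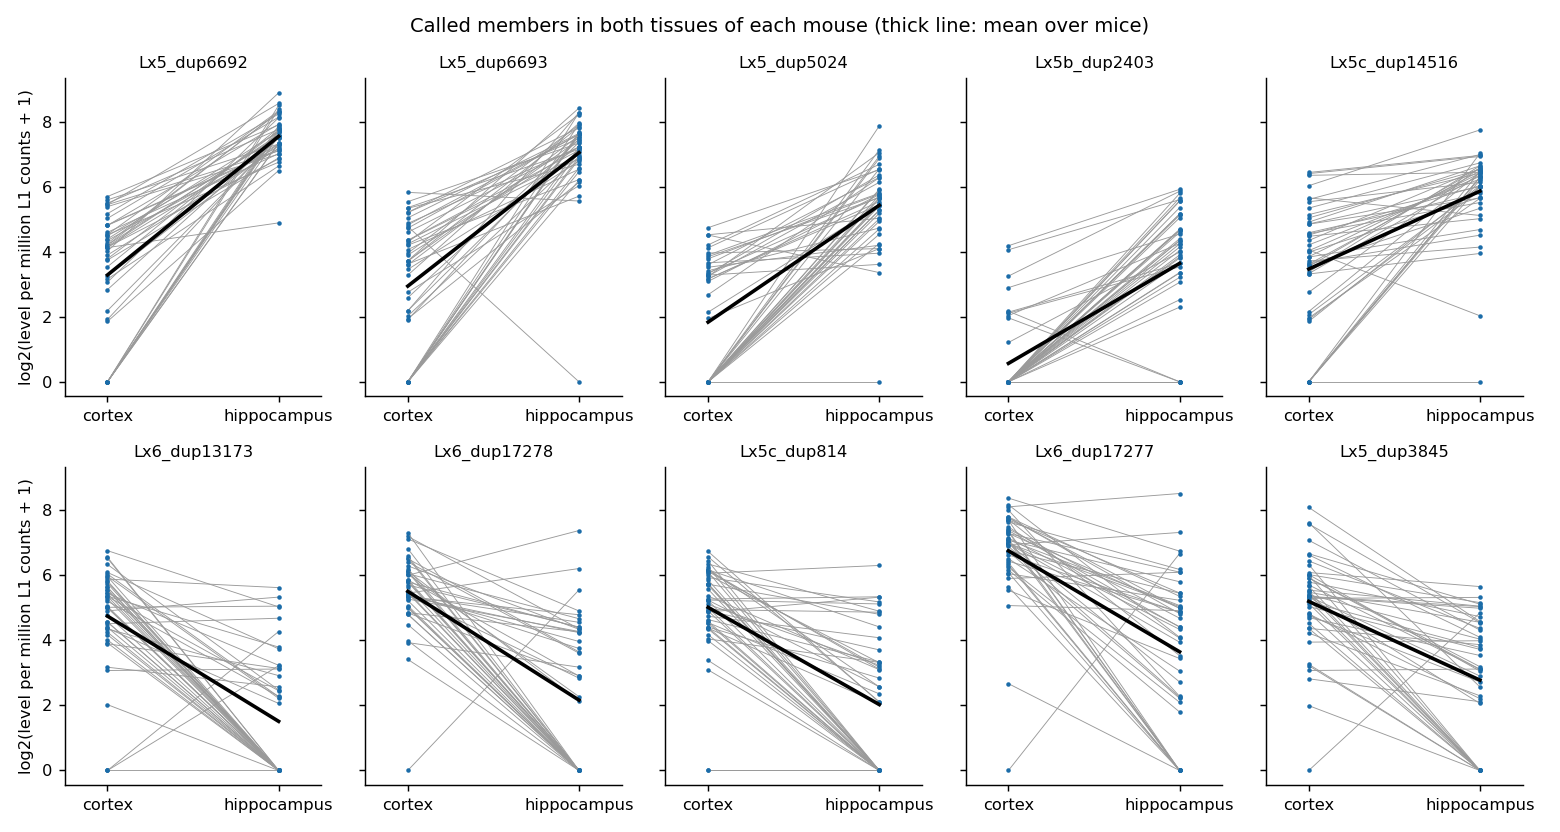
The level of the 10 named tissue members in cortex and hippocampus of each of the 46 mice, as log2(CPM + 1). Thin lines join the 2 libraries of a mouse and the thick line joins the means. The upper row holds the 5 members higher in hippocampus, such as Lx5_dup6692, which rises in all 46 mice, and the lower row the 5 higher in cortex, where single mice go the other way.

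Consecutive copy numbers occurred 9 times among the 106 called members, and each of the 9 pairs moved in the same direction. Of the 70 consecutive pairs among the 472 tested members 51 had the same sign. Positions of these copies were not at hand, and the distance between them was not measured. Differences over 2-fold were found for 45 of the 106 called members and over 4-fold for 14. Among the largest were those of Lx5_dup6692 and Lx6_dup13173, which had entered the test through hippocampus alone and cortex alone. The pairs and the sizes of the differences were not compared with those of all elements tested. Whether they are particular to these members was therefore not tested.

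The lower Lx6 sum did not lie in the called copies alone. The 19 called copies higher in cortex held 0.111% of L1 counts in cortex and 0.0631% in hippocampus, and the 6 called copies higher in hippocampus held 0.0360% and 0.0608%. The 122 copies tested and not called held 0.423% and 0.455%. The 7001 copies with too few counts to be tested held 0.749% ± 0.203 in cortex and 0.625% ± 0.0993 in hippocampus, the largest part of the difference, and 0.736% ± 0.0900 in the 40 cortex libraries that did not stand apart. The copies too low for a test were also lower in hippocampus for Lx5 (0.757% and 0.643%), Lx5b (0.320% and 0.258%) and Lx5c (0.737% and 0.635%). For Lx5c the 16 called copies higher in hippocampus lay on the other side, at 0.278% in cortex and 0.456% in hippocampus. These classes were set by the tissue test itself, so that no test is given for them. The depth of the tissues differed (median 323416 L1 counts in cortex and 259745 in hippocampus), and its part in the share of rare copies was not tested.

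Several of the abundant copies differed between tissues by a smaller amount. Lx5c_dup11681 (0.53, adjusted p = 0.000107), Lx5c_dup7571 (0.56, adjusted p = 5.65e-05), Lx5b_dup5700 (0.61, adjusted p = 0.000123), Lx6_dup7081 (0.53, adjusted p = 0.00354) and Lx5_dup8474 (0.32, adjusted p = 0.0240) were higher in hippocampus. Lx6_dup2924 was lower (-0.42, adjusted p = 0.00909), at 155 to 1072 CPM in cortex (median 331) and 114 to 630 CPM in hippocampus (median 283). Of the 12 most abundant copies named, the other 6 did not pass the threshold.

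The level of Lx6_dup2924 followed the mouse. Over the 46 mice, the deviation of its log2(CPM + 1) from the group mean in cortex correlated with that in hippocampus (Pearson's r = 0.598, permutation p = 3e-05, adjusted p = 0.00045; Spearman's rho = 0.597, permutation p = 4e-05, adjusted p = 0.0006, over 15 copies). The r was 0.524 without the 2 mice farthest from the median, 0.547 in the 38 mice without an outlying library and 0.496 in the 27 mice whose animal label begins with 20. Lx5b_dup3387 had an r of 0.346 (permutation p = 0.018, adjusted p = 0.068) and a rho of 0.483 (permutation p = 0.00082, adjusted p = 0.0061), with an r of 0.517 without the 2 farthest mice and 0.247 in the mice labelled 20. Lx5c_dup11681 had an r of 0.374 (permutation p = 0.0099, adjusted p = 0.05) and a rho of 0.298 (permutation p = 0.045, adjusted p = 0.14). Its r was 0.417 without the 2 farthest mice. Lx6_dup4745 had an r of 0.321 (permutation p = 0.029, adjusted p = 0.086) and a rho of 0.372 (permutation p = 0.012, adjusted p = 0.059). Its r was 0.275 without the 2 farthest mice. The r of Lx5c_dup4342 (0.463, permutation p = 0.0022, adjusted p = 0.016) rested on the 2 farthest mice, without which it was 0.0486. These 15 relations were computed for the 3 listed and the 12 most abundant copies after the data had been seen. Over all 472 members tested between tissues the median r was 0.0858, and 2.12% were above 0.5. Over all 7551 elements the median was 0.0825, and 2.40% were above 0.5.

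The comparisons of genotype and treatment asked whether trisomy or lamivudine changed these elements within a tissue. No sum of a subfamily and no single copy tested was called in any of the 8 comparisons in edgeR. In cortex the 4 sums had their highest mean in WT-nt mice. The Lx5 share was 1.48% to 1.71% in WT-nt (mean 1.58% ± 0.0914), 0.872% to 1.70% in WT-t (1.51% ± 0.190), 1.39% to 1.60% in TS-nt (1.48% ± 0.0780) and 1.29% to 1.67% in TS-t (1.52% ± 0.113). The groups overlapped throughout. For Lx6 the means were 1.41% ± 0.184 in WT-nt, 1.28% ± 0.197 in WT-t, 1.30% ± 0.108 in TS-nt and 1.32% ± 0.139 in TS-t. For Lx5b they were 0.597% ± 0.101, 0.528% ± 0.0923, 0.546% ± 0.0374 and 0.554% ± 0.0900 in the same order, and for Lx5c 1.49% ± 0.116, 1.36% ± 0.152, 1.41% ± 0.0961 and 1.37% ± 0.171.

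In TS-nt vs. WT-nt in cortex all 4 sums were lower in TS-nt, by -0.19 (Lx5, SE 0.075), -0.25 (Lx5b, SE 0.11), -0.17 (Lx5c, SE 0.076) and -0.24 (Lx6, SE 0.10), with unadjusted p-values between 0.0132 and 0.0323. The adjusted p-values were 0.123 to 0.187 in edgeR over 133 subfamilies, of which 0.752% were called. In DESeq2 Lx5 (adjusted p = 0.0728), Lx5c (0.0993) and Lx6 (0.0842) passed the threshold. The log2 ratios of the mean shares, which use only the L1 total as scaling, were smaller. They were -0.10 (Lx5), -0.13 (Lx5b), -0.076 (Lx5c) and -0.12 (Lx6). The size of the edgeR differences also depended on 1 library. WT-nt mouse 24 had the largest L1 total of all libraries, 1165192 counts, and 6.07% of it on these elements, above every other library. Without it the differences were -0.090, -0.052, -0.058 and -0.062 in the order Lx5, Lx5b, Lx5c and Lx6, and the adjusted p-values were between 0.868 and 0.932 in edgeR. For Lx5 this mouse (1.69%) was not the highest of its group, and a gap in the shares remained. The mean Lx5 share without the outlying libraries was 1.57% in WT-nt (n = 8) and 1.49% in TS-nt (n = 8), a log2 difference of -0.092 (unadjusted p = 0.0351, adjusted p = 0.389 in edgeR). Over all libraries the difference of the Lx5 shares had a p of 0.0167 in the two-sided exact permutation test, and 0.485 after adjustment over 32 such comparisons. For Lx5b, Lx5c and Lx6 the same test gave a p of 0.148, 0.148 and 0.112, each 0.485 after adjustment. In hippocampus the same mouse had the lowest share of its group for Lx6 (0.996%), Lx5b (0.439%) and Lx5c (1.28%).

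WT-t vs. WT-nt in cortex shared that library. Lx5b (-0.24), Lx5c (-0.15) and Lx6 (-0.18) had unadjusted p-values of 0.0201, 0.0288 and 0.0391, and the adjusted values of all 4 sums were between 0.295 and 0.432 in edgeR. Without WT-nt mouse 24 the differences of these 3 were -0.038, -0.037 and -0.011. Lx5 had a difference of -0.090, which became 0.013 without it. In TS-t vs. WT-nt the sums differed by -0.073 (Lx5), -0.16 (Lx5b), -0.14 (Lx5c) and -0.13 (Lx6), and without mouse 24 by 0.030, 0.043, -0.027 and 0.045 (adjusted p = 0.918 for each in edgeR). In TS-t vs. TS-nt that library enters only through the scaling and the spread shared by the 4 groups. The differences were 0.12, 0.094, 0.031 and 0.11, with adjusted p-values between 0.696 and 0.835 in edgeR. Without mouse 24 they were 0.12, 0.095, 0.031 and 0.11, with adjusted p-values between 0.282 and 0.785. The unadjusted p of Lx5 was 0.0887 with that library and 0.0195 without it. The interaction of treatment and genotype was between 0.18 and 0.33 with adjusted p-values of 0.181 to 0.262, and between 0.068 and 0.13 without mouse 24. No subfamily of the table was called in cortex for the treatment within either genotype or for the interaction, and 0.752% were called in TS-t vs. WT-nt.

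**Figure D4:**
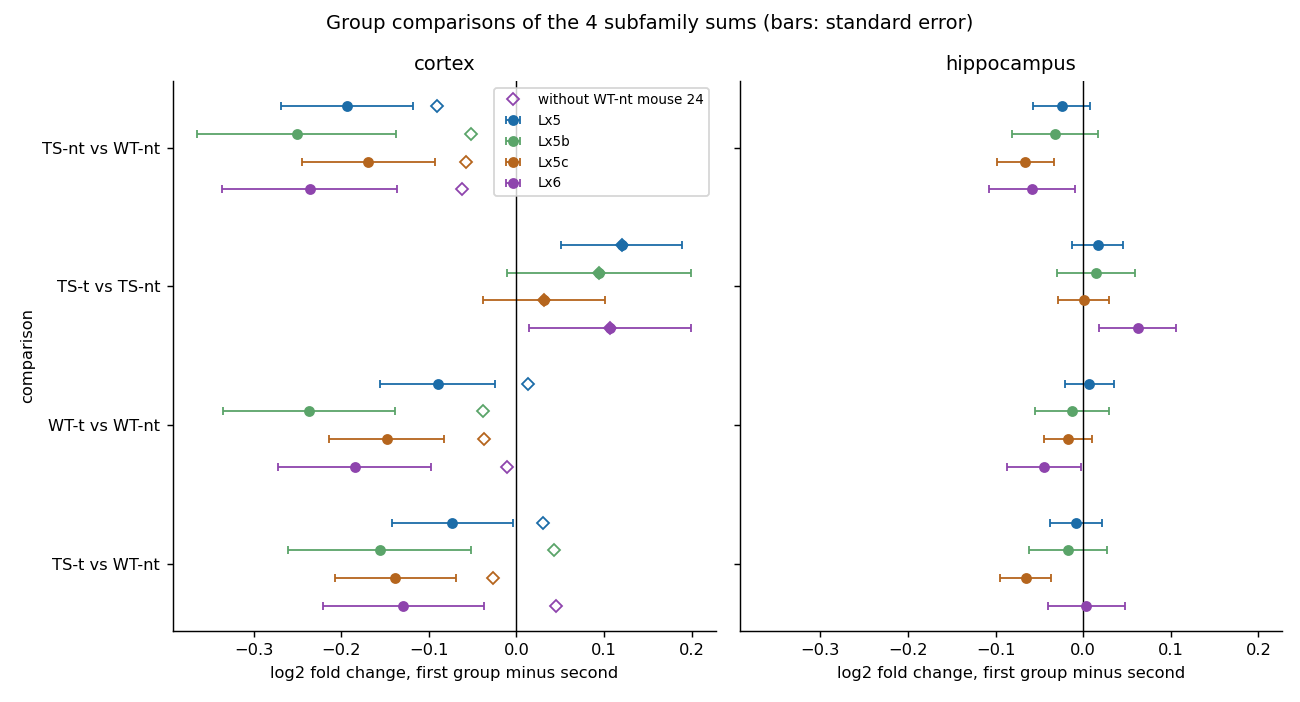
The log2 fold change of the 4 subfamily sums in the 4 comparisons of groups, in cortex and hippocampus. Filled points are estimates from all libraries with their SE as bars, and open diamonds in the cortex panel are the estimates without WT-nt mouse 24. In TS-nt vs. WT-nt the cortex points lie between -0.25 and -0.17 and the diamonds between -0.090 and -0.052.

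In hippocampus the groups were closer together. The Lx5 means were 1.53% ± 0.0622 in WT-nt, 1.55% ± 0.0641 in WT-t, 1.51% ± 0.0893 in TS-nt and 1.54% ± 0.0706 in TS-t. For Lx6 they were 1.22% ± 0.0983, 1.19% ± 0.0885, 1.17% ± 0.139 and 1.23% ± 0.0760. The differences of the 4 sums lay between -0.066 and 0.062 over the 4 comparisons. The largest in size was that of Lx5c, which was -0.066 in TS-nt vs. WT-nt (unadjusted p = 0.0465, adjusted p = 0.512 in edgeR) and -0.065 in TS-t vs. WT-nt (unadjusted p = 0.0282, adjusted p = 0.414). The Lx5c share was 1.28% to 1.61% in WT-nt, 1.37% to 1.55% in TS-nt and 1.33% to 1.60% in TS-t, so that the groups overlapped. Of all subfamilies in hippocampus, TS-t vs. WT-nt had 1.52% called, while no subfamily passed the threshold in the other 3 comparisons. None of the differences between tissues in these comparisons, tested after the data had been seen, was called for the 4 sums, with adjusted p-values between 0.618 and 0.997 in edgeR.

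The time or batch of the mice could not be separated from the treatment in full. All non-treated mice had an animal label beginning with 20, while the labels of the WT-t mice began with 18 in 6, 19 in 8 and 20 in 3, and those of the TS-t mice in 1, 4 and 8. The labels do not say what these digits stand for. With treated mice limited to labels beginning with 20, no sum was called in either tissue, with differences of TS-t vs. TS-nt in cortex of 0.039 (Lx5), 0.034 (Lx5b), -0.0076 (Lx5c) and 0.024 (Lx6). In WT-t mice the cortex Lx6 share was 1.19% ± 0.316 with labels 18 (n = 6), 1.34% ± 0.0549 with 19 (n = 8) and 1.33% ± 0.0683 with 20 (n = 3). Outlying libraries made up 3 of those with labels 18 and 1 of those with 20. Without them the cortex Lx6 share was 1.36% ± 0.0930 (n = 3) with labels 18 and 1.37% ± 0.0221 (n = 2) with 20. The lower cortex mean of labels 18 was then no longer seen. In hippocampus no library stood apart, and the WT-t shares still rose with the label. Lx6 was 1.14% ± 0.0892 with labels 18, 1.21% ± 0.0657 with 19 and 1.24% ± 0.114 with 20. For Lx5 the means were 1.51%, 1.56% and 1.61%. In TS-t mice the hippocampus Lx6 means fell instead, at 1.27% (n = 1), 1.24% (n = 4) and 1.23% (n = 8). The Lx5b and Lx5c means rose with the label there too. They were 0.475%, 0.533% and 0.543% for Lx5b and 1.34%, 1.40% and 1.48% for Lx5c. For Lx5 they went neither way throughout, at 1.53%, 1.48% and 1.57%. These label differences were not tested.

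Single copies were tested in 332 members in cortex and 266 in hippocampus, which held 39% and 46.8% of the counts of all members. None was called in any of the 4 cortex comparisons in edgeR or DESeq2, and 0% of the 5416 elements tested were called. At an unadjusted p below 0.05 edgeR gave 6 members for TS-nt vs. WT-nt (1.81%, against 1.51% of all elements), 11 members for WT-t vs. WT-nt (3.31% and 1.59%), 3 members for TS-t vs. TS-nt (0.904% and 0.905%) and 7 members for TS-t vs. WT-nt (2.11% and 1.75%). In hippocampus no member was called by either tool, where edgeR called 0.0708% of the 4238 elements in TS-nt vs. WT-nt, 0.0472% of them in TS-t vs. WT-nt and 0% in the other 2 comparisons. The members at an unadjusted p below 0.05 in edgeR were 12, 11, 7 and 11 in the order given for cortex. These were 4.51%, 4.14%, 2.63% and 4.14% of the members tested, against 4.03%, 3.16%, 3.26% and 4.25% of all elements. The differences between these shares were not tested.

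The member with the smallest p-value in each comparison is given as a description. Lx6_dup11967 was that copy in hippocampus for both TS-nt and TS-t mice against WT-nt mice. It was at 0 to 15.6 CPM in WT-nt (median 6.89), 0 to 59.3 CPM in WT-t (median 25.5), 3.95 to 107 CPM in TS-nt (median 39.7) and 0 to 90.1 CPM in TS-t (median 29.5). WT-nt mice were low, and the ranges of all 4 groups overlapped. The differences were 2.48 (SE 0.710, unadjusted p = 0.000738, adjusted p = 0.521 in edgeR) and 2.13 (SE 0.666, unadjusted p = 0.00189, adjusted p = 0.470), and these comparisons share the WT-nt mice. In cortex the means of this copy were between 15.6 and 21.7 CPM in the 4 groups.

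In TS-t vs. TS-nt in hippocampus the copy was Lx6_dup5549, at 2.48 to 84.2 CPM in TS-nt (median 28.2) and 9.52 to 149 CPM in TS-t (median 63.4), with WT-nt at 49.9 to 133 CPM (median 81.3). TS-nt was the lowest group, and its range overlapped with those of the others. The difference was 1.29 (SE 0.424, unadjusted p = 0.00312, adjusted p above 0.999 in edgeR). For Lx5c_dup16018, the copy in WT-t vs. WT-nt, the levels were 55.7 to 266 CPM in WT-t and 33.8 to 150 CPM in WT-nt (0.70, unadjusted p = 0.00733). In cortex the copies were Lx5_dup10277 in TS-nt vs. WT-nt (9.17 to 77.4 CPM against 0 to 24.7 CPM, 1.82, unadjusted p = 0.0144), Lx6_dup5624 in TS-t vs. TS-nt (3.53 to 36.2 CPM against 17.5 to 93.0 CPM, -1.34, unadjusted p = 0.0163) and Lx5_dup10770 in TS-t vs. WT-nt (0 to 52.7 CPM against 0 to 14.1 CPM, 2.89, unadjusted p = 0.00141). The adjusted p-values of all of these were above 0.999 in edgeR, and every pair of groups overlapped.

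Of the 3 listed members, which the study chose on these libraries, Lx5b_dup498 and Lx6_dup13936 were tested and were not called in any comparison in edgeR, and Lx5_dup4325 was not tested. Lx5b_dup498, in the intron of Sdccag8, had the smallest p-value of the members in WT-t vs. WT-nt in cortex. It was at 0 to 46.3 CPM in WT-nt (median 16.6), 0 to 155 CPM in WT-t (median 63.9), 0 to 96.8 CPM in TS-nt (median 25.1) and 9.88 to 134 CPM in TS-t (median 42.6). In hippocampus the medians were 32.2, 80.1, 37.1 and 67.8 CPM in the same order, so that both treated groups had higher medians than both non-treated groups in each tissue, with overlap. The difference of WT-t vs. WT-nt was 1.68 in cortex (SE 0.510, unadjusted p = 0.00121) and 1.13 in hippocampus (SE 0.468, unadjusted p = 0.0189), and the adjusted p-values were above 0.999 in edgeR. With treated mice limited to labels beginning with 20 the cortex difference was 0.98 (unadjusted p = 0.191). The cortex means of WT-t mice were 86.0 ± 60.9 CPM with labels 18 (n = 6), 68.8 ± 35.9 with 19 (n = 8) and 42.1 ± 21.1 with 20 (n = 3). Without the outlying libraries they were 112 ± 14.5 with 18 (n = 3) and 52.2 ± 16.5 with 20 (n = 2). The cortex means of TS-t mice were 31.2 CPM with label 18 (n = 1), 93.2 with 19 (n = 4) and 38.8 with 20 (n = 8). The TS-nt mice, all with labels 20, had a cortex mean of 38.8 CPM (n = 9). In hippocampus the mean of TS-t mice with labels 20 was 59.1 CPM (n = 8), and that of TS-nt mice was 39.2 CPM (n = 8). The part of the label in these means was not tested.

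Lx6_dup13936, in the exon of A830082K12Rik shown above, was the most abundant of the 3. It was at 0 to 262 CPM in WT-nt cortex (median 111), 0 to 319 CPM in WT-t (median 146), 78.6 to 371 CPM in TS-nt (median 163) and 69.3 to 260 CPM in TS-t (median 154). In hippocampus the ranges were 87.1 to 193 CPM in WT-nt (median 107), 86.9 to 291 in WT-t (median 173), 74.2 to 265 in TS-nt (median 132) and 77.8 to 254 in TS-t (median 197). WT-nt had the lowest median in both tissues, and all groups overlapped. In hippocampus the difference was 0.66 in TS-t vs. WT-nt (SE 0.230, unadjusted p = 0.00496, adjusted p = 0.731 in edgeR) and 0.48 in WT-t vs. WT-nt (unadjusted p = 0.0316). Between the tissues it differed by -0.011 (adjusted p = 0.972).

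Lx5_dup4325, in the intron of Lmbr1, had too few counts to be tested in either tissue, 117 in all cortex libraries and 42 in all hippocampus libraries. In cortex it had a count in 9 of 9 WT-nt, 10 of 17 WT-t, 2 of 9 TS-nt and 4 of 13 TS-t libraries, with means of 13.1 ± 6.18, 7.60 ± 8.02, 2.38 ± 6.07 and 1.62 ± 2.82 CPM. Both WT means were above both TS means in cortex, with overlap, and TS-nt mouse 27 reached 18.3 CPM and held 85.7% of the summed TS-nt level. In hippocampus the order was another one, with a count in 2 of 8 WT-nt, 6 of 17 WT-t, 5 of 8 TS-nt and 2 of 13 TS-t libraries and means of 1.90 ± 4.15, 3.45 ± 5.72, 8.98 ± 12.2 and 1.06 ± 3.00 CPM. At these depths 1 count is worth several CPM, and no test was made.

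**Figure D5:**
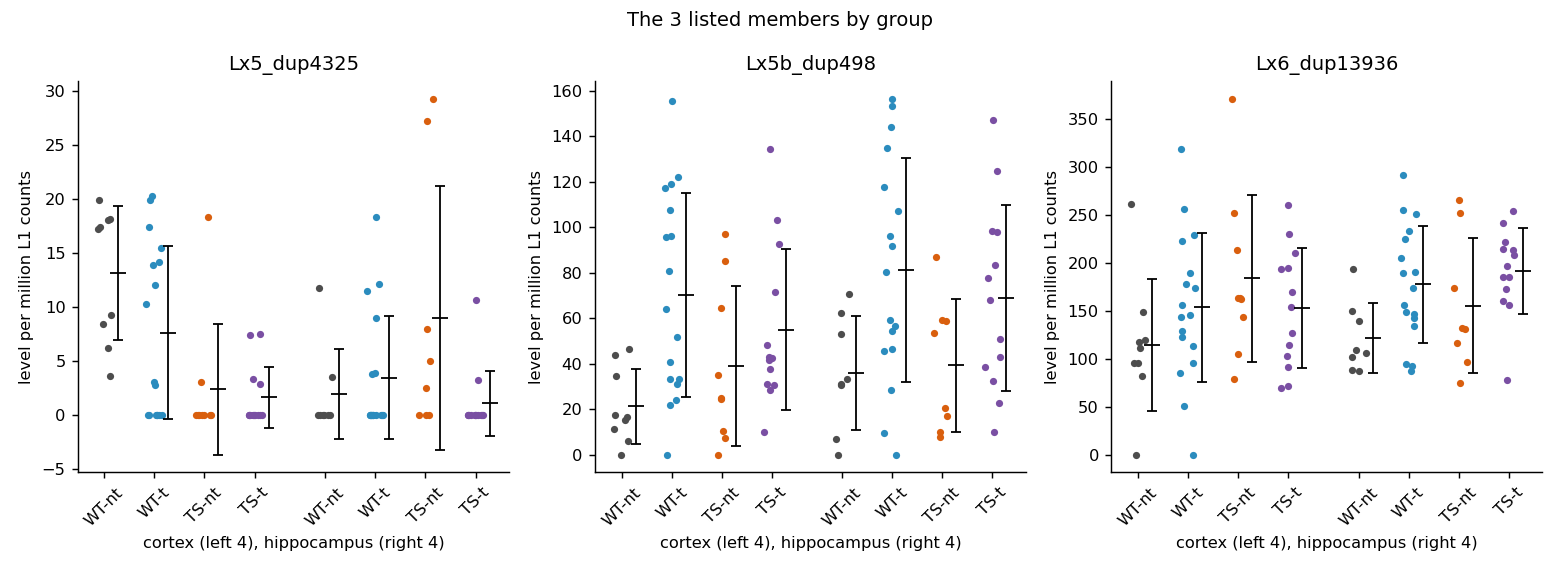
The level (CPM) of the 3 listed members by library, with the 4 cortex groups on the left and the 4 hippocampus groups on the right of each panel and bars for the mean ± SD. Lx5_dup4325 has counts in all 9 WT-nt cortex libraries and in 2 of the 9 TS-nt cortex libraries, and the groups of Lx5b_dup498 and Lx6_dup13936 overlap.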

How the data were processed

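The deposited file holds raw counts of reads per L1 element, whole numbers that the authors did not normalize. Per the submitters' processing notes, the authors trimmed reads with Trimmomatic 0.38 and aligned them to GRCm38/mm10 with HISAT2 2.1.0, and per the methods they kept up to 5 alignments per read and counted with Telescope, which gives a read with several alignments to its most probable copy. Near-identical copies can thus exchange reads, and values of single copies are uncertain to that extent. The libraries were stranded and depleted of ribosomal RNA. All 94 columns were used.

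Elements were filtered with filterByExpr (a minimum count of 10, adjusted for library size, in a number of libraries set by the smallest group, and a total of 15), scaled with TMM factors and tested with edgeR 4.0.16 (R 4.3.3, limma 3.58.1) by quasi-likelihood with robust fitting, on all elements, with Benjamini-Hochberg adjustment over all elements tested and a threshold of 0.1. A fit of the 4 groups was made in each tissue and a fit of the 8 groups between tissues. Sums over the copies of each of the 133 subfamilies (132 in the hippocampus fit) were tested in the same way. SE is the log2 fold change divided by the root of F. Differences in shares were also compared with two-sided exact permutation tests (scipy 1.17.1 in Python 3.11.15, with numpy 2.4.6 and pandas 2.3.3). Alternatives were DESeq2 1.42.0, other scalings, other filters, an adjusted p below 0.05, leaving out libraries and the mouse as a block. The scripts were tested on simulated data.

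Members named were the 3 listed in the study, the 3 most abundant of each subfamily, the 5 called in each direction between tissues with the smallest p-values, and in each comparison of groups without a call the 1 with the smallest p-value. The members, lists and rules were chosen with earlier results of these data known. Other copies, tests across the tissues of a mouse and the differences between tissues of the group comparisons were chosen after the data had been seen.

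Same-numbered libraries of cortex and hippocampus come from the same mouse by their labels. The deviations of the subfamily shares from the group means correlated between the tissues over 46 mice with Pearson's r of 0.426 (Lx5), 0.143 (Lx5b), 0.456 (Lx5c) and 0.0710 (Lx6). Intervals of counting error are not given, as the spread between libraries includes it.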

Additional observations from a re-analysis of the deposited data

Results flagged for a closer look

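In groups of 8 or 9 libraries, 28 sets of values were examined for a library far from the rest of its group (4 subfamily shares and 3 listed members in the WT-nt and TS-nt groups of each tissue), and 5 stood apart. The 4 shares of a library are not independent. Lx5_dup4325 was 0 in most libraries of the 2 groups where it stood apart. A rate of about 1 in 20 by chance holds for independent sets without so many zeros, so that it is no measure for these 28 sets. The cortex library of WT-nt mouse 24 had a share of 0.850% for Lx5b and of 1.88% for Lx6, each far above the other 8 libraries of its group, and the hippocampus library of the same mouse had an Lx6 share of 0.996%, far below the other 7. Lx5_dup4325 stood apart at 18.3 CPM in the cortex of TS-nt mouse 27 and at 11.7 CPM in the hippocampus of WT-nt mouse 33. These values of Lx5_dup4325 rest on 14 and 3 counts. What set the library of mouse 24 apart was not tested.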

How the results depend on the processing

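Lx6 was lower in hippocampus under every alternative tried. With the mouse as a replicate block the tissue differences were -0.019 (Lx5), -0.076 (Lx5b), 0.037 (Lx5c) and -0.17 (Lx6), 103 members were called, of which 92 were shared with the unblocked test, and no call of a sum changed.

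With the total of L1 counts in place of TMM factors, the tissue difference was 0.010 for Lx5, -0.062 for Lx5b (no longer called) and 0.060 for Lx5c (now called), and in single groups 0.0093 for Lx5c in WT-nt, 0.040 for Lx5 and 0.017 for Lx5b in WT-t, and 0.021 for Lx5 in TS-t. Under the same scaling Lx5c was -0.041 in TS-t vs. TS-nt in cortex, Lx5 was 0.0096 in TS-t vs. WT-nt in hippocampus, and the differences between tissues of TS-t vs. TS-nt were 0.0036 (Lx5b), 0.052 (Lx5c) and 0.048 (Lx6). Without the outlying libraries the tissue difference was 0.019 for Lx5 and 0.065 for Lx5c (now called), and in single groups 0.057 for Lx5c in WT-nt, 0.0047 for Lx5 in WT-t and 0.022 for Lx5 in TS-t. Lx5c was then -0.0025 in TS-t vs. TS-nt in cortex. The differences between tissues were -0.010 (Lx5c) and -0.0076 (Lx6) for TS-nt vs. WT-nt, 0.017 (Lx5c) and 0.043 (Lx6) for TS-t vs. TS-nt, and -0.036 (Lx6) for WT-t vs. WT-nt. Without the most abundant member of each subfamily, Lx5c was -0.034 between tissues, -0.0030 in TS-nt and -0.024 in TS-t, Lx5 was 0.0075 in WT-t, and in TS-t vs. WT-nt in hippocampus Lx5 was 0.00078 and Lx6 was -0.0030. The hippocampus shares were then 0.486% (Lx5b) and 1.30% (Lx5c). With labels beginning with 20, Lx5c was -0.0076 in TS-t vs. TS-nt in cortex, and in hippocampus Lx5b was 0.049 in WT-t vs. WT-nt, the values of TS-t vs. WT-nt were 0.0040 (Lx5) and -0.021 (Lx6), and the interaction was -0.019 (Lx5) and -0.036 (Lx5b). The log2 ratios of mean shares were -0.041 for Lx5c in TS-t vs. TS-nt in cortex and 0.0096 for Lx5 in TS-t vs. WT-nt in hippocampus. In DESeq2, TS-nt vs. WT-nt in cortex gave -0.21 (Lx5), -0.18 (Lx5c) and -0.25 (Lx6), now called.

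Without a filter on low counts edgeR called 3185 members in TS-nt vs. WT-nt (15.7%, against 13.5% of all elements), 3762 members for WT-t vs. WT-nt (18.6% and 15.99%), 569 members for TS-t vs. TS-nt (2.81% and 2.98%) and 4392 members for TS-t vs. WT-nt (21.7% and 18.4%) in cortex, and 685 (4.73% and 4.89%), 965 (6.67% and 6.65%) and 907 (6.27% and 6.69%) in the last 3 of these in hippocampus. Between tissues, members with at least 10 counts gave 1672 calls (12.97%, against 13.8% of all elements), 280 higher in hippocampus and 1392 in cortex, beside 5125 and 25795 of all elements, and 105 were higher in cortex in DESeq2 and 89 with size factors. The cause of these changes was not tested.

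Leaving out 1 library at a time, the ranges in TS-nt vs. WT-nt in cortex were -0.22 to -0.090 (Lx5), -0.29 to -0.052 (Lx5b), -0.20 to -0.058 (Lx5c) and -0.27 to -0.062 (Lx6). Calls appeared there without WT-nt mouse 29 (Lx5, Lx5c and Lx6), 33 (all 4) or 42 (Lx5), and the value nearest 0 was that without mouse 24. In TS-t vs. WT-nt in cortex the ranges were -0.098 to 0.030 (Lx5), -0.20 to 0.043 (Lx5b) and -0.16 to 0.045 (Lx6), in WT-t vs. WT-nt -0.11 to 0.013 (Lx5), and in TS-t vs. TS-nt -0.013 to 0.047 (Lx5c). In hippocampus they were -0.0055 to 0.028 (Lx5), -0.011 to 0.032 (Lx5b) and -0.012 to 0.015 (Lx5c) in TS-t vs. TS-nt, -0.028 to 0.0077 (Lx5), -0.045 to 0.0059 (Lx5b) and -0.017 to 0.014 (Lx6) in TS-t vs. WT-nt, -0.0084 to 0.021 (Lx5), -0.036 to 0.018 (Lx5b) and -0.029 to 2.5e-05 (Lx5c) in WT-t vs. WT-nt, and -0.012 to 0.023 (Lx5), -0.0044 to 0.055 (Lx5b) and -0.0085 to 0.038 (Lx5c) for the interaction.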
